A study of Mus musculus with 44 samples.

Results

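Mineral is laid down in bone matrix where phosphate is plentiful and its inhibitors are removed, and the 7 genes described here act on both sides of that balance in mouse calvarial osteoblast cultures. They are Alpl, Phex, Slc20a1, Slc20a2, Enpp1, Ankh and Mgp, and every probe set whose annotated gene is one of them was taken. That gave 8 probe sets of 6 genes, out of 36701 probe sets and 15964 named genes on 3 types of Affymetrix array (A, B and C). No probe set of Enpp1 is named in the tables used here, so Enpp1 is not analysed here. Ankh is annotated under its mouse symbol Ank. A single probe set was found for Alpl, Slc20a1, Ankh and Mgp on array A and for Slc20a2 on array B, while Phex had 1 on array A and 2 on array C.

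The cultures were grown from the calvaria (skull cap) of newborn mice, labelled 7 days old, transgenic for green fluorescent protein (GFP) under a fragment of a type I collagen promoter. At day 17 the transgene was pOBCol2.3GFP, and the medium contained ascorbic acid and beta-glycerophosphate. At day 7 the transgene was pOBCol3.6GFP, and the medium contained neither. On each day RNA came from unsorted cells, from the sorted GFP-positive fraction and from the GFP-negative fraction of 3 experiments, which makes 6 groups with n = 3 each. The experiments were Exp100, Exp105 and Exp106 at day 17 and Exp99, Exp101 and Exp103 at day 7. As background, the longer fragment becomes active earlier in the osteoblast lineage than the shorter one, and beta-glycerophosphate is a phosphate source that is released by alkaline phosphatase. Day, transgene and medium changed together and cannot be told apart in any comparison between days. The labels do not say whether the experiments were separate cultures or litters, and the p-values cover the spread among these samples alone, which may be technical.

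As background, alkaline phosphatase (Alpl) sits on the osteoblast surface and on matrix vesicles, where it hydrolyses pyrophosphate, an inhibitor of mineral growth, and sets phosphate free. Ankh moves pyrophosphate or its precursor out of the cell, and Enpp1 makes pyrophosphate from nucleotides outside it. Slc20a1 and Slc20a2 (Pit-1 and Pit-2) are sodium-dependent phosphate importers. Phex is a membrane endopeptidase of osteoblasts and osteocytes whose loss raises FGF23 and causes X-linked hypophosphataemia. Mgp, matrix Gla protein, is a vitamin K-dependent inhibitor of calcification, best known from cartilage and vessel walls.

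The promoters of 3 members are shown because these genes moved in opposite directions between the days in GFP-positive cells. There Alpl and Phex were called higher at day 17 and Slc20a1 lower. Each is the 250 bases before a gene start on the gene's own strand, from RefSeq's GRCm38.p6 table, which held promoters for 5 of the 7 genes. Where a gene has more than 1 start, the first one listed is printed. Alpl is at chr4:137796385-137796634 (minus strand), Phex at chrX:157415287-157415536 (minus strand) and Slc20a1 at chr2:129198523-129198772 (plus strand). Capitals mark matches on either strand to TGTGGT (the core bound by RUNX factors), TATAAA (the TATA box), CACGTG (an E-box) or GGGCGG (a GC box).
Alpl promoter: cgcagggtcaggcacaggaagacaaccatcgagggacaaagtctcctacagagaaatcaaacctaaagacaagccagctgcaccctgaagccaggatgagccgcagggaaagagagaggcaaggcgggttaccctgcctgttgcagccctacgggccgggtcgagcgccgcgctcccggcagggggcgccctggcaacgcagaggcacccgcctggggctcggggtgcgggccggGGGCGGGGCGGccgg
Phex promoter: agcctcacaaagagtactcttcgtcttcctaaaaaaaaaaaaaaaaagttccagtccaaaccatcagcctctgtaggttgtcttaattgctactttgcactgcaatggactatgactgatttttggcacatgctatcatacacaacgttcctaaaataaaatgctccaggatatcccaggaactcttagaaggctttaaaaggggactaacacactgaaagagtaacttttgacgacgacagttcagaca
Slc20a1 promoter: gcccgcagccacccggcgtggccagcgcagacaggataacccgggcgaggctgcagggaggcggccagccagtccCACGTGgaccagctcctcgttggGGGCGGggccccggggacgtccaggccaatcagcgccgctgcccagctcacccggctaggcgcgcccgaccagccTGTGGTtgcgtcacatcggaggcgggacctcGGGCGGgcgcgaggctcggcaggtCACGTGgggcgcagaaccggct
The windows differed in base composition, with 68.4% G and C in Alpl, 39.2% in Phex and 75.2% in Slc20a1. Slc20a1 held 1 match to TGTGGT, 2 to CACGTG and 2 to GGGCGG, Alpl held 2 matches to GGGCGG that overlap each other by 1 base, and Phex held none of these motifs. The second listed starts differed from the printed ones. There Alpl had 1 match to TATAAA and none to GGGCGG, and Slc20a1 had 1 match to GGGCGG and none to TGTGGT or CACGTG. Of 32851 mouse promoter windows of this length, 14% held TGTGGT, 12.4% TATAAA, 6.02% CACGTG and 32.7% GGGCGG. A match is a run of letters in this window, not a shown binding site.

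Values are normalised intensities on a linear scale, from quantile normalisation within each array type, and have no absolute unit. Differences are on a log2(intensity + 32) scale with their standard error (SE), and folds are 2 to that difference, so both understate changes of dim probe sets. Tests are limma's moderated test with Benjamini-Hochberg adjustment over all probe sets tested, and a probe set is called changed at an adjusted p under 0.05. Testing was limited to probe sets brighter than the median of their array on 3 or more arrays. Of the 8 member probe sets, 7 were tested between sorted groups, and the Phex probe set of array A was not, since it passed the median on 2 of 18 arrays. Comparisons with unsorted cells used array A, where 4 members were tested. Unsorted against sorted is the unsorted mean minus the equally weighted log2 mean of both fractions. A mix of fractions that differ can lie above such a mean by itself. In RNA from mixed cells, fewer cells of a type and less RNA per cell cannot be told apart.

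The fractions were checked against osteoblast markers. The summed intensity of the 4 osteoblast markers with a probe set, of 8 listed (Col1a1, Col1a2, Ibsp and Sparc), ranged from 362066 to 451653 in GFP-positive and from 289323 to 313103 in GFP-negative cells at day 17. At day 7 it ranged from 124600 to 199867 in GFP-positive and from 108380 to 245831 in GFP-negative cells. Col1a1, Col1a2 and Sparc, which fibroblasts express as well, made up nearly all of these day 7 sums. Ibsp, a protein of mineralising bone matrix, averaged 77666 in GFP-positive and 17062 in GFP-negative samples of day 17, and 951 and 331 in the same order at day 7. Of these 4 markers 0 were called in the day 17 sort, where 1.48% of all probe sets were called. The differences were 2.25 ± 0.91 for Ibsp (adjusted p = 0.373, limma), 0.57 ± 0.24 for Sparc, 0.06 ± 0.33 for Col1a1 and 0.10 ± 0.26 for Col1a2. The trimmed mean intensity of an array was 1069 to 1766 on type A, 1367 to 1723 on type B and 1259 to 1606 on type C. The sorted RNA of Exp106 stood apart: its mean correlation across probe sets with the other sorted samples was 0.839 on array A, 0.772 on B and 0.770 on C, against 0.943, 0.900 and 0.813 among the others. Results of the members that this experiment changes are given with and without it. The tests of the markers and of the pathway lists were not read without it.

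**Figure D1:**
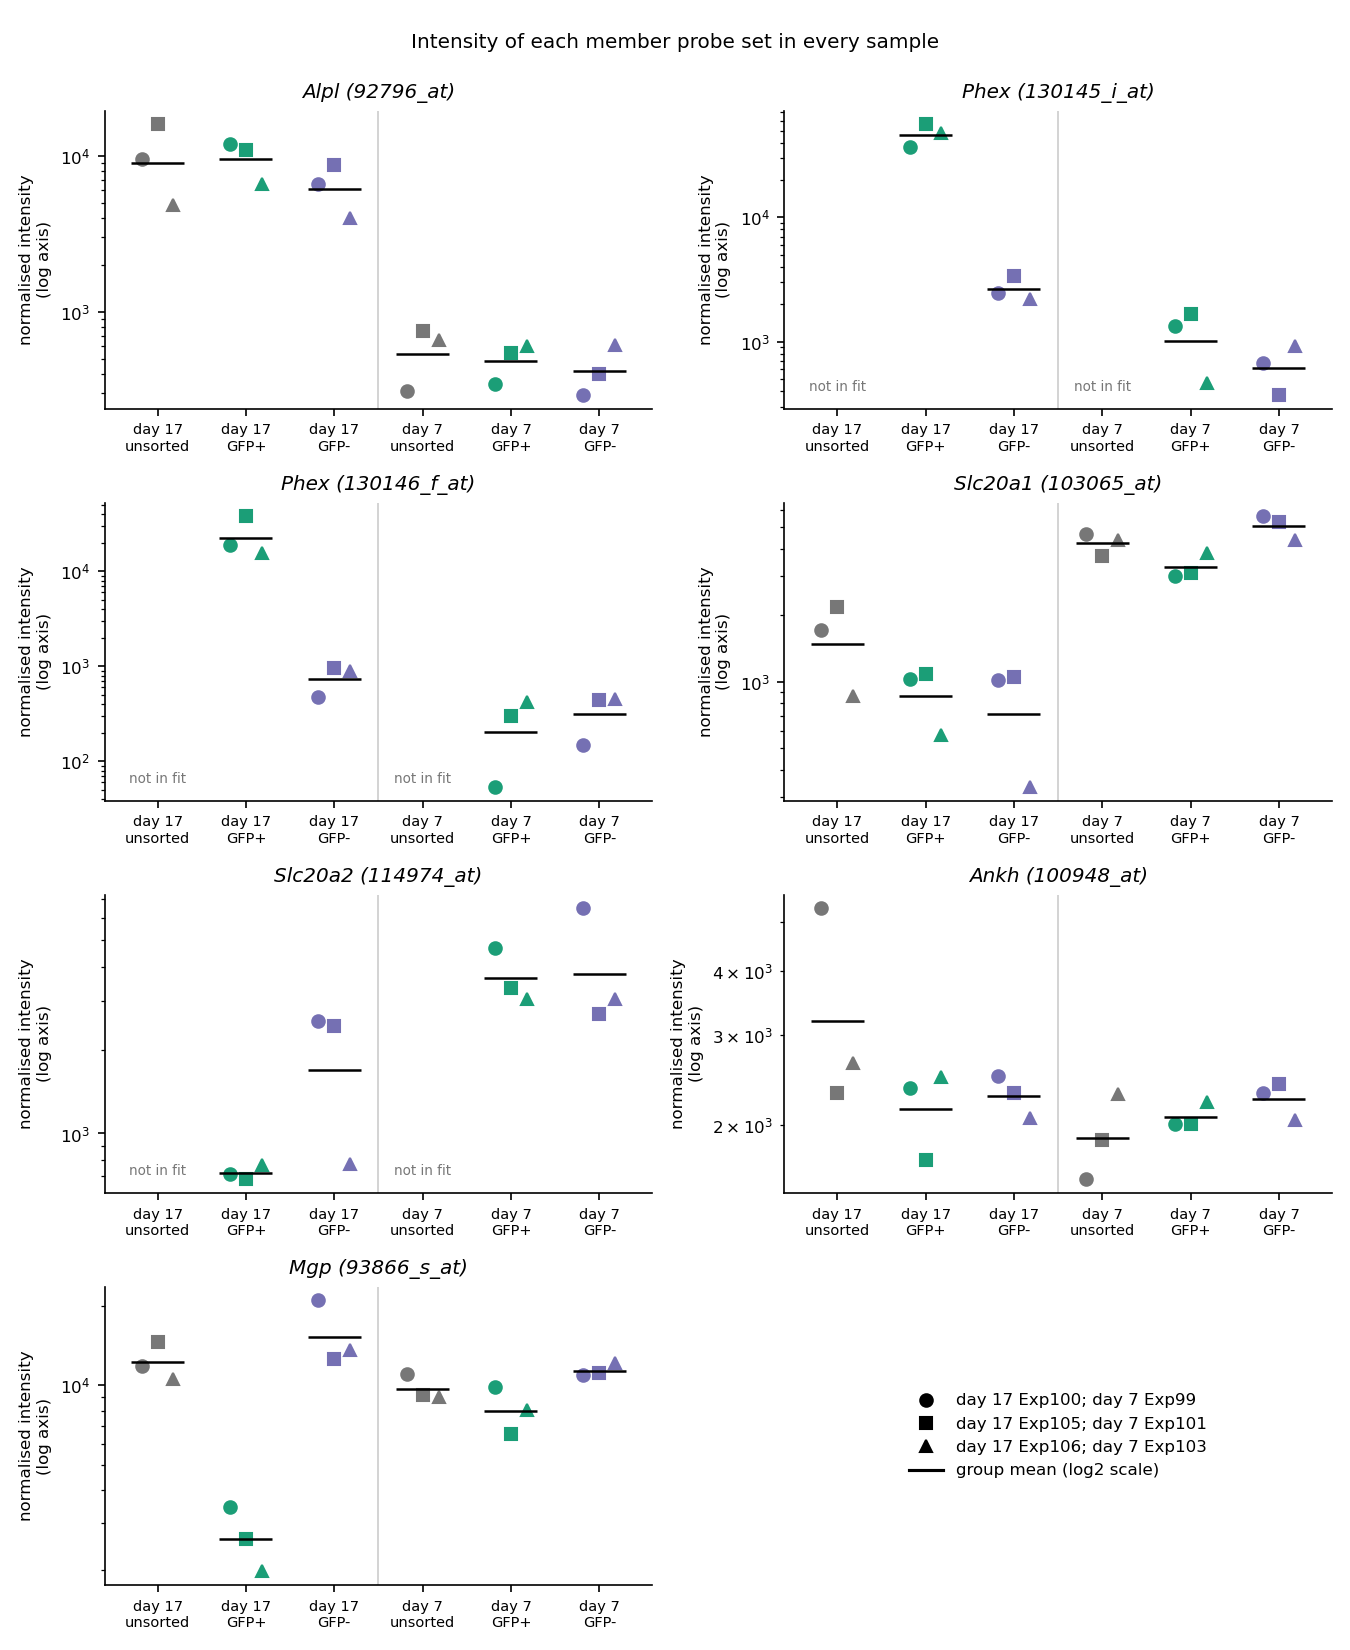
Normalised intensity (log axis) of the 7 tested member probe sets in every RNA sample, with groups ordered by day and then unsorted, GFP-positive (GFP+) and GFP-negative (GFP-); symbols are experiments and bars the mean on the log2 scale. Alpl lies at 4002 or above in all 3 kinds of cells at day 17 and at 748 or below at day 7, Slc20a1 runs the other way, and Phex and Mgp separate the fractions of day 17.

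Alpl was high in every sample of day 17 and low in every sample of day 7, whichever fraction was measured. In Exp100, Exp105 and Exp106 its intensity was 9491, 15946 and 4804 in unsorted cells, 12000.5, 10856 and 6589 in GFP-positive cells and 6648, 8677 and 4002 in GFP-negative cells. In Exp99, Exp101 and Exp103 it was 309.6, 748 and 663 in unsorted cells, 342, 545 and 601 in GFP-positive cells and 291, 397 and 614 in GFP-negative cells. The days did not overlap in any kind of cells, and the lowest day 17 sample was the GFP-negative fraction of Exp106.

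Day 17 exceeded day 7 for Alpl by 4.21 ± 0.37 in GFP-positive cells (18.5-fold, adjusted p = 0.000133, limma). In GFP-negative cells the difference was 3.79 ± 0.37 (13.8-fold, adjusted p = 0.00133, limma) and in unsorted cells 3.99 ± 0.45 (15.8-fold, adjusted p = 0.000142, limma). Among all tested probe sets ordered by rise, Alpl was number 4 of 22099 in GFP-negative cells, 21 of 22099 in GFP-positive cells and 9 of 7455 in unsorted cells. All of these calls held under every alternative tried. Alpl was brighter than the array median in few day 7 samples, namely 2 of 3 unsorted, 1 of 3 GFP-positive and 1 of 3 GFP-negative.

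The sort on GFP did not separate Alpl in the same way. At day 17 it was higher in the GFP-positive fraction of all 3 experiments, by 0.85, 0.32 and 0.72 in Exp100, Exp105 and Exp106. The mean difference of 0.63 ± 0.37 did not pass (adjusted p = 0.634, limma), with a 95% interval of -0.18 to 1.44, and the groups overlapped. At day 7 it was 0.20 ± 0.37, with an interval of -0.60 to 1.01, and the 2 effects differed by 0.43 ± 0.52 (adjusted p = 0.9998, limma). Unsorted cells exceeded the mean of the fractions by 0.24 ± 0.39 at day 17 and by 0.25 ± 0.39 at day 7, neither of them called. The order of the log2 means was GFP-positive, unsorted and GFP-negative at day 17, then unsorted, GFP-positive and GFP-negative at day 7. The only neighbours without overlap were the lowest group of day 17 and the highest of day 7.

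Slc20a1, the gene of the importer Pit-1, went against Alpl. Its intensity in Exp100, Exp105 and Exp106 was 1709, 2178 and 861 in unsorted cells, 1032, 1081 and 572 in GFP-positive cells and 1015, 1052 and 333 in GFP-negative cells. In Exp99, Exp101 and Exp103 it was 4680.3, 3695 and 4409 in unsorted cells, 3027, 3122 and 3838 in GFP-positive cells and 5614, 5317 and 4369 in GFP-negative cells. Every day 17 sample was below every day 7 sample, and Exp106 was the lowest of its day in each kind of cells.

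At day 17 Slc20a1 fell by 2.78 ± 0.39 on the log2 scale in GFP-negative cells (6.85-fold lower, adjusted p = 0.0121, limma). It fell by 1.90 ± 0.39 in GFP-positive cells (3.74-fold lower, adjusted p = 0.0167, limma) and fell by 1.50 ± 0.39 in unsorted cells (2.83-fold lower, adjusted p = 0.0375, limma). These calls are less firm than those of Alpl. Without any 1 of the 3 day 7 samples of its own fraction, the call was lost in GFP-negative cells (adjusted p = 0.0505 to 0.0768, limma) and in GFP-positive cells (adjusted p = 0.0529 to 0.0699, limma). In unsorted cells it was lost in 7 of 18 such omissions, with adjusted p up to 0.162 (limma) without the unsorted sample of Exp106. Leaving out the whole of Exp106 kept all 3 calls.

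Between the fractions, Slc20a1 was lower in GFP-positive than in GFP-negative cells in all 3 experiments at day 7, with log2 differences of -0.88, -0.76 and -0.19 in Exp99, Exp101 and Exp103. The groups did not overlap, but the mean difference of -0.61 ± 0.39 did not pass (adjusted p = 1, limma), with an interval of -1.47 to 0.25. At day 17 the fractions differed by 0.26 ± 0.39 (interval -0.60 to 1.12), a value carried by Exp106, where the difference was 0.73 against 0.02 in Exp100 and 0.04 in Exp105. Unsorted cells of day 17 were above both fractions of the same experiment in all 3 experiments, by 0.56 to 0.99 over the GFP-positive and by 0.73 to 1.29 over the GFP-negative fraction. The mean excess was 0.89 ± 0.34 (adjusted p = 0.227, limma). With the experiment as a fixed block its adjusted p was 0.00615 (limma), and 0.0119 as a random block (limma). Without Exp106 the excess was 0.87 (adjusted p = 0.00698, limma). At day 7 the same contrast was 0.05 ± 0.34.

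Slc20a2, the gene of Pit-2, was measured on array B, in sorted cells. At day 17 its intensity was 715, 683 and 769.7 in the GFP-positive cells of Exp100, Exp105 and Exp106, against 2548, 2448 and 773 in the GFP-negative cells. The day 7 values were 4658, 3358 and 3056 in the GFP-positive cells of Exp99, Exp101 and Exp103, against 6488, 2696 and 3058 in the GFP-negative cells. The 3 day 17 GFP-positive samples lie close together, and none was above its array's median. The GFP-negative sample of Exp106 lies with them.

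In GFP-positive cells Slc20a2 fell at day 17 by 2.28 ± 0.44 on the log2 scale (adjusted p = 0.0108, limma). Leaving out the GFP-positive sample of Exp99 gave adjusted p = 0.0578 (limma), and no other omission lost the call. In GFP-negative cells the difference was -1.14 ± 0.44 (adjusted p = 0.347, limma), also without overlap. Within day 17 the difference between GFP-positive and GFP-negative cells was -1.79 in Exp100 and -1.79 in Exp105, but -0.01 in Exp106. The mean of -1.20 ± 0.44 did not pass (adjusted p = 0.303, limma). It passed without Exp106, at -1.79 (adjusted p = 0.0181, limma), and without its GFP-negative sample alone, at -1.75 (adjusted p = 0.0337, limma). At day 7 the fractions differed by -0.05 ± 0.44, with a different sign in Exp101 (0.31) than in Exp99 (-0.48). The effects of the 2 days differed by -1.14 ± 0.63 (adjusted p = 0.973, limma), and by -1.74 without Exp106, neither of them called. With the experiment as a fixed block as well, the value without Exp106 passed (adjusted p = 0.0148, limma). The unsorted RNA of Exp106 was also on array B, where Slc20a2 had a deposited intensity of 2460, against 890 in its GFP-positive and 829 in its GFP-negative cells. That array entered no fit.

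Ankh varied little. In Exp100, Exp105 and Exp106 its intensity was 5317, 2311 and 2638 in unsorted cells, 2359, 1703 and 2481 in GFP-positive cells and 2493, 2313 and 2062 in GFP-negative cells. In Exp99, Exp101 and Exp103 it was 1562, 1868 and 2300.4 in unsorted cells, 2010.1, 2008 and 2216 in GFP-positive cells and 2309.7, 2409 and 2047 in GFP-negative cells. The 12 sorted samples all lie between 1703 and 2493, and the unsorted sample of Exp100 lies far above the rest. Ankh passed the median on all 18 arrays, so these values are not at the dim end.

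None of the tests of Ankh passed. Day 17 differed from day 7 by 0.05 ± 0.20 in GFP-positive cells (95% interval -0.39 to 0.49) and by 0.02 ± 0.20 in GFP-negative cells (interval -0.42 to 0.46). Each interval leaves out a change of 1 log2 unit in either direction. The fractions differed by -0.08 ± 0.20 at day 17 and by -0.11 ± 0.20 at day 7. In unsorted cells the days differed by 0.75 ± 0.27 (adjusted p = 0.118, limma), with no overlap. Without Exp106 this value was 0.88 (adjusted p = 0.0489, limma), and without the unsorted sample of Exp100 it was 0.38 and not called.

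Phex separated the fractions of day 17 more than any other member. The _i_at probe set of array C had 36689.9, 56192 and 48143 in GFP-positive cells of Exp100, Exp105 and Exp106, against 2444, 3377 and 2199.8 in GFP-negative cells. The day 7 values were 1344, 1668 and 460.4 in the GFP-positive cells of Exp99, Exp101 and Exp103, against 675, 369.7 and 922 in the GFP-negative cells. The day 17 fractions lie far apart, the day 7 fractions overlap, and Exp103 runs against the other 2 experiments of its day.

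The _f_at probe set of array C gave the same picture at day 17. It had 19036, 37908 and 15696 in GFP-positive cells of Exp100, Exp105 and Exp106, against 478, 957 and 887 in GFP-negative cells. The day 7 values were 53.2, 298 and 423 in GFP-positive cells of Exp99, Exp101 and Exp103, against 148, 445 and 458 in GFP-negative cells. None of these 6 samples was above its array's median, so the probe set passed the filter through day 17 samples alone. Both probe sets of array C are annotated to the same gene and were read from the same arrays, so they are not separate evidence. As background, the suffix _i marks a probe set with a reduced number of probes and _f one whose probes also match a family of related sequences.

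Within the experiments of day 17 the GFP-positive excess was 3.89, 4.04 and 4.43 by the first of these probe sets and 5.23, 5.26 and 4.10 by the second. The fitted differences were 4.12 ± 0.46 (17.4-fold, adjusted p = 0.000425, limma) and 4.86 ± 0.65 (29.1-fold, adjusted p = 0.00112, limma). The _f_at probe set had the largest rise of all 22099 tested, and the _i_at probe set was number 3. Both calls held under all 23 alternatives. At day 7 the differences were 0.70 ± 0.46 and -0.57 ± 0.65, which differ in sign and did not pass.

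The GFP effect on Phex was larger at day 17 than at day 7 by 3.43 ± 0.65 (adjusted p = 0.0340, limma) for the _i_at and by 5.43 ± 0.91 (adjusted p = 0.0274, limma) for the _f_at probe set. Size and sign held whichever sample was left out, at 2.88 to 3.77 and 4.70 to 5.91. The first call was lost in 11 of 12 such omissions, with adjusted p up to 0.125 (limma), and the second in 6 of 12, with adjusted p up to 0.0955 (limma).

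Between the days Phex rose in GFP-positive cells by 5.47 ± 0.46 (44.2-fold, adjusted p = 1.78e-05, limma) and 6.59 ± 0.65 (adjusted p = 4.84e-05, limma) by the _i_at and the _f_at probe set of array C. No fold is given for the second, since all 6 of its day 7 samples lay below their array's median. In GFP-negative cells the differences were 2.04 ± 0.46 (adjusted p = 0.0589, limma) and 1.16 ± 0.65 (adjusted p = 0.533, limma), without overlap of the days in either. The first of them passed without Exp106, at 2.17 (adjusted p = 0.0443, limma). It also passed with either the GFP-positive sample of Exp103 (adjusted p = 0.0349, limma) or that of Exp106 (adjusted p = 0.0444, limma) left out of the fit, neither of which is in this comparison.

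The dim Phex probe set of array A is the only one with a value in all unsorted samples. At day 17 it had 239, 376 and 69.3 in unsorted cells, 699, 1738 and 214 in GFP-positive cells and 52.7, 133 and 280.0 in GFP-negative cells of Exp100, Exp105 and Exp106. At day 7 all 9 samples lay between 77.3 and 126. It thus followed array C in Exp100 and Exp105, with a GFP-positive excess of 3.11 and 3.43, and went against it in Exp106, at -0.35. The unsorted cells of Exp100 and Exp105 lay between their fractions. On array C the unsorted RNA of Exp106 had deposited intensities of 7717 by the _i_at and 4055 by the _f_at probe set. Those values lie between 67112 in its GFP-positive and 1899 in its GFP-negative cells for the _i_at probe set, and between 21191 and 696 for the _f_at probe set.

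**Figure D2:**
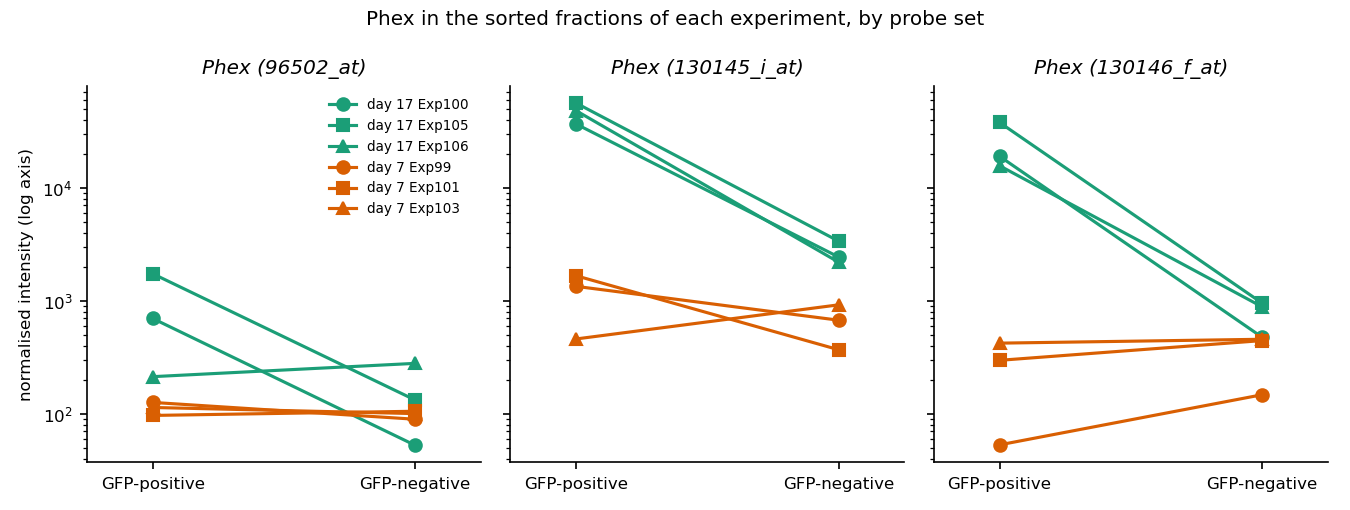
Normalised intensity (log axis) of Phex in the GFP-positive and GFP-negative cells of each experiment, joined by a line, for the untested probe set of array A (left) and both probe sets of array C. The 3 day 17 lines fall steeply on array C, while on array A the line of Exp106 does not, with 214 in GFP-positive cells against 280.0 in GFP-negative cells.

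Mgp was the member that the day 17 sort turned down. Its intensity was 3464.5, 2624 and 1974 in the GFP-positive cells of Exp100, Exp105 and Exp106, against 20901, 12581.5 and 13532 in the GFP-negative cells. In the unsorted cells of those experiments it was 11845, 14588 and 10505. The day 7 values were 9796, 6544 and 8029.5 in GFP-positive cells of Exp99, Exp101 and Exp103, against 10896, 11074 and 12074 in GFP-negative cells, with 11011.5, 9187 and 9022 in unsorted cells. The fractions did not overlap on either day, and the 3 GFP-positive samples of day 17 were the lowest of all 18.

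At day 17 the difference between GFP-positive and GFP-negative cells for Mgp was -2.58, -2.25 and -2.76 on the log2 scale in Exp100, Exp105 and Exp106. The fitted difference was -2.53 ± 0.26 (5.77-fold lower, adjusted p = 0.000677, limma). It was called under 22 of 23 alternatives, the exception being a fit of the 2 groups alone (adjusted p = 0.0517, limma). At day 7 it was -0.50 ± 0.26 (interval -1.07 to 0.07), with the GFP-positive fraction lower in all 3 experiments. The difference between these effects, -2.03 ± 0.37, just missed the threshold (adjusted p = 0.0538, limma). With the experiment as a fixed block its adjusted p was 0.00530 (limma), as a random block 0.000749 (limma), and without Exp106 the value was -1.92 (adjusted p = 0.0189, limma). In all, 8 of 22 alternatives put it past the threshold.

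Mgp fell between the days in GFP-positive cells by 1.60 ± 0.26 on the log2 scale (3.04-fold lower, adjusted p = 0.00448, limma), a call that held under every alternative. In GFP-negative cells the days differed by 0.43 ± 0.26 (adjusted p = 0.583, limma) and in unsorted cells by 0.33 ± 0.24 (adjusted p = 0.411, limma). Unsorted cells of day 17 exceeded the mean of the fractions by 0.94 ± 0.20 (1.92-fold, adjusted p = 0.0343, limma), lying near the GFP-negative fraction. The fractions differed strongly in Mgp, and a mix of them can exceed their equally weighted log2 mean. Unsorted minus GFP-negative cells was -0.82, 0.21 and -0.36 on the log2 scale in Exp100, Exp105 and Exp106. The part of mixing in this call was not tested. This call was lost without the unsorted sample of Exp100 (adjusted p = 0.137, limma) or Exp105 (0.136), the GFP-positive sample of Exp105 (0.0734) or Exp103 (0.0523), or the GFP-negative sample of Exp105 (0.0781), and in a fit of the day 17 groups alone (0.243).

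Some markers of other cells were also lower in GFP-positive cells in the day 17 sort, where 1.48% of all probe sets were called. The summed intensity of 8 fibroblast and progenitor markers (of 9 listed) ranged from 109455 to 135469 in GFP-positive and from 192759 to 247536 in GFP-negative cells, and 3 of the 8 tested were called lower and 0 higher. For 7 smooth muscle and pericyte markers the sums ranged from 13772 to 15182 and from 34102 to 49503 in the same order, with 4 of 5 tested called lower. The 11 macrophage markers ranged from 18315 to 70311 in GFP-positive and from 57910 to 95369 in GFP-negative cells, with 1 of 9 tested called lower. Their sums ran the other way in Exp106, at 70311 in GFP-positive cells against 57910 in GFP-negative ones. Over 3 of 5 osteocyte markers the sums were 2234 to 16189 in GFP-positive and 2630 to 3802 in GFP-negative cells, which overlap. They were higher in the GFP-positive cells of Exp100 (8485 against 2630) and Exp105 (16189 against 3802) and lower in those of Exp106 (2234 against 2933). Adipocyte markers (4 of 5) ranged from 1008 to 2169 and from 4062 to 7705 in that order. No marker can be at 0, since the lowest deposited value is 10. The part of these cells in the results on Mgp and Phex was not tested.

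**Figure D3:**
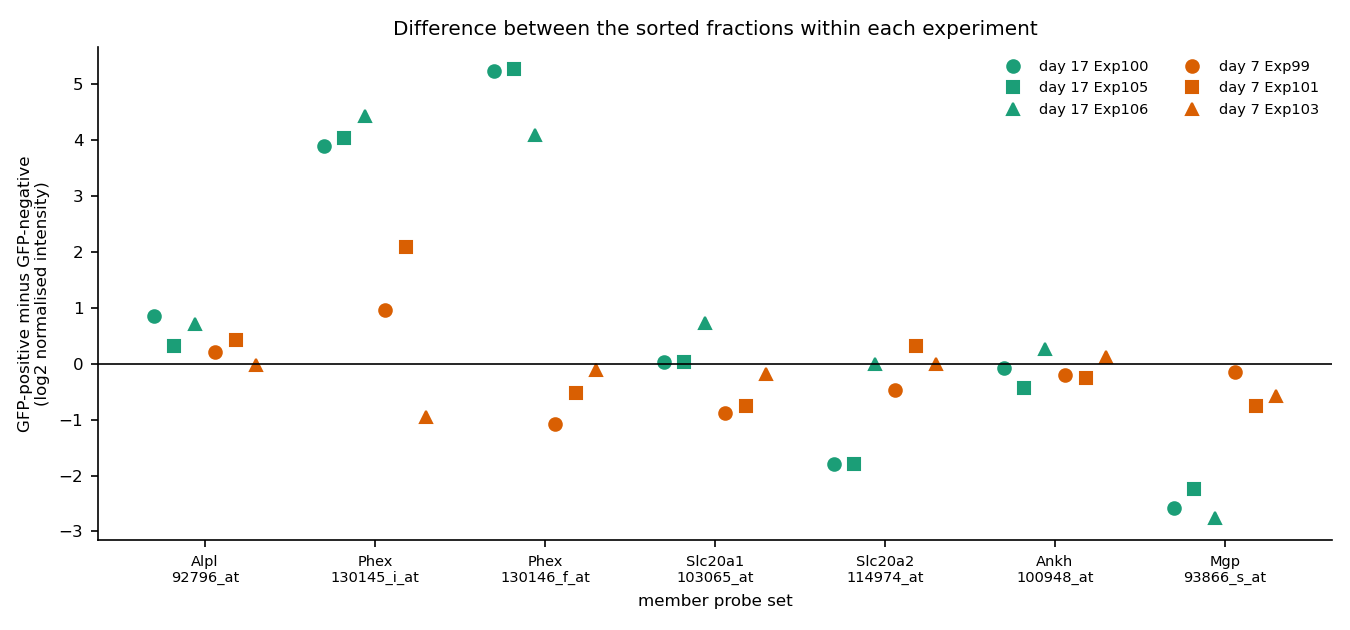
Difference between the GFP-positive and the GFP-negative fraction of the same experiment (log2 normalised intensity) for the 7 tested probe sets, with day 17 in green and day 7 in orange. At day 17 the Phex points lie between 3.89 and 5.26 and the Mgp points between -2.76 and -2.25, while the 2 Slc20a2 points at -1.79 and the 1 at -0.01 show Exp106 apart.

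Over the members, the day 17 sort called 3 of 7 tested probe sets, both of Phex higher and Mgp lower, where 1.48% of the 22099 probe sets tested were called. The members were chosen with earlier results of these data known, so the shares here and below are a description. The median difference of these 7 probe sets, 2 of which are of Phex, was 0.26, against -0.01 over all probe sets. At day 7 the sort called 0 members, and 0% of all probe sets were called (limma, with 328 at an unadjusted p under 0.05). The difference of these effects called 2 member probe sets, both of the single gene Phex, where 0.253% of all were called. In unsorted against sorted cells 1 of 4 members, Mgp, was called at day 17, where 1.6% of 7455 probe sets were, and at day 7 0 members, where 0% were (limma, with 59 at an unadjusted p under 0.05).

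Between the days the GFP-positive cells called 6 of 7 member probe sets, where 5.45% of all were called: Alpl and both of Phex higher, and Slc20a1, Slc20a2 and Mgp lower. GFP-negative cells called 2 of 7, Alpl higher and Slc20a1 lower, where 0.538% of all were called. Unsorted cells called 2 of 4, again Alpl higher and Slc20a1 lower, where 5.71% of all were called. Alpl and Slc20a1 thus passed between the days in all 3 kinds of cells, and the sort at day 17 passed in neither. For Phex and Mgp the change between days was called in GFP-positive cells, and the sort was called at day 17. The comparisons share samples and are given side by side. Markers of other cells moved with the days as well. Macrophage markers summed to 18315 to 70311 at day 17 and 4447 to 5536 at day 7 in GFP-positive cells (5 of 9 tested called higher). In GFP-negative cells they summed to 57910 to 95369 at day 17 and 10980 to 28322 at day 7, again without overlap, with a median log2 difference of 1.80 over the 9 tested, none of which passed singly. In unsorted cells 7 of 10 macrophage markers were called higher. Smooth muscle markers summed to 13772 to 15182 at day 17 and 55357 to 60958 at day 7 in GFP-positive cells (4 of 5 called lower), and of 5 skeletal muscle markers 3 were called lower in unsorted cells. Of 8 fibroblast markers 3 were called higher at day 17 in GFP-negative cells, against 0 higher and 1 lower in GFP-positive cells. In unsorted cells 2 of 7 fibroblast markers were called higher. Their part in the changes between days was not tested.

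**Figure D4:**
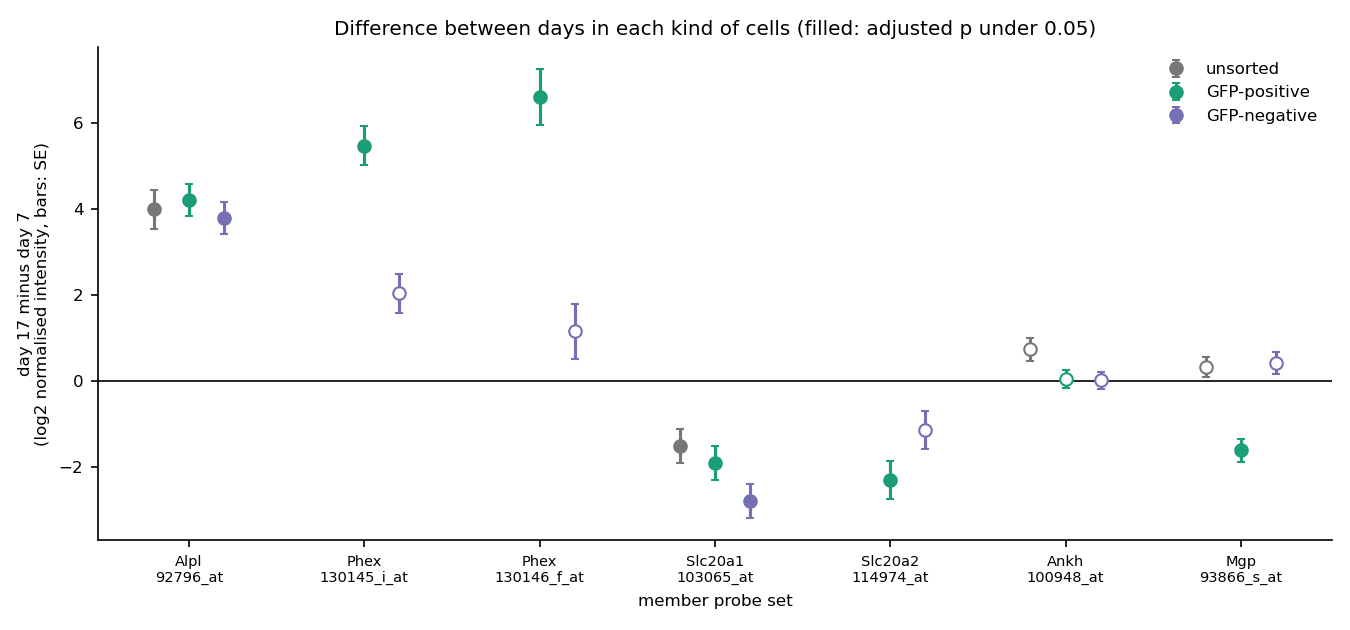
Difference between day 17 and day 7 (log2 normalised intensity, bars 1 SE) of each tested member probe set in unsorted, GFP-positive and GFP-negative cells, with filled points at an adjusted p under 0.05 by limma. Alpl lies between 3.79 and 4.21 in all 3 kinds of cells, Slc20a1 between -2.78 and -1.50, and Ankh near 0 in sorted cells.

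The other genes of these pathways were taken from 6 lists with 64 entries in all, 58 of them with a probe set and 43 tested between sorted groups. At day 17 1 was called higher in GFP-positive than in GFP-negative cells and 2 lower, with a median difference of 0.13 against -0.01 over all probe sets. Of all probe sets tested, 1.48% were called there, 77 higher and 249 lower. Galnt3, the transferase that glycosylates FGF23 and protects it from cleavage, was higher by 1.82 ± 0.29 (3056 in GFP-positive against 865 in GFP-negative cells, adjusted p = 0.00828, limma). Its probe set carries the suffix _f, so its probes may also match related sequences. Gas6, a vitamin K-dependent ligand, was lower by 2.43 on the log2 scale (3303 against 16452, SE 0.36, adjusted p = 0.00508, limma). Postn, periostin, was called lower too, at -1.15 ± 0.24 (adjusted p = 0.0390, limma), and stands in the fibroblast markers as well. The phosphatase and pyrophosphate list had 0 of 11 tested genes called. Its largest difference was Pdp1, a mitochondrial phosphatase, at -2.44 ± 0.64 (adjusted p = 0.0989, limma). The other lists without a call had their largest differences in Dmp1 (2.85 ± 0.84), Pth1r (1.30 ± 0.47) and Mmp13 (-0.71 ± 0.29).

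Between the days 6 of these 43 genes were called higher in GFP-positive cells and 0 lower. Of all probe sets tested, 5.45% were called there, 421 higher and 783 lower. Ibsp, bone sialoprotein, a nucleator of mineral, rose by 6.92 ± 0.91 (77666 against 951, adjusted p = 0.00123, limma) and Dmp1, a matrix protein of late osteoblasts and osteocytes, by 4.19 ± 0.84 (4363 against 138, adjusted p = 0.0140, limma). Pth1r, the parathyroid hormone receptor, rose by 3.48 ± 0.47 (adjusted p = 0.00136, limma), and Galnt3 by 2.25 ± 0.29 (adjusted p = 0.00108, limma). Vkorc1, which recycles the vitamin K that carboxylation of Mgp needs, rose by 1.27 ± 0.18 (adjusted p = 0.00173, limma), and Fam20c, the kinase of secreted matrix proteins, had 1331 against 647 (adjusted p = 0.0345, limma). The 2 lists without a call had their largest differences in Pdp1 (-1.74 ± 0.64) and Smpd3, a sphingomyelinase of matrix vesicles (1.04 ± 0.29).

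In GFP-negative cells 2 were called higher and 0 lower, Ibsp at 5.93 ± 0.91 (adjusted p = 0.0187, limma) and Vkorc1 at 1.27 ± 0.18 (adjusted p = 0.0114, limma). Of all probe sets tested, 0.538% were called there, 60 higher and 59 lower. Unsorted cells, where 5.71% of all probe sets were called (227 higher and 199 lower), called 7 of 36 higher and 0 lower. These were Ibsp, Dmp1, Pth1r, Galnt3 and Vkorc1, by 0.80 (Vkorc1) to 6.86 (Ibsp), Gas6 (2.05 ± 0.35, adjusted p = 0.00313, limma) and Furin, a proprotein convertase that cleaves FGF23 (0.92 ± 0.24, adjusted p = 0.0377, limma). Gas6 was also the 1 of 36 called in unsorted against sorted cells at day 17 (1.52 ± 0.30, adjusted p = 0.0243, limma). In that comparison Mgp was called too, as were 1.6% of all probe sets. The matrix vesicle list (annexins, Smpd3 and others) had 0 of 6 tested genes called in any comparison. Fgf23 itself was below the filter, with a day 17 mean of 381 in GFP-positive cells against 570.5 in GFP-negative cells. Kl, its co-receptor, lay near the lowest value, at 16.7 against 12.5 in the same cells.

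Likeness to each member was measured as Pearson's r over the 12 sorted samples, among 11679 tested genes, with 1 probe set a gene. It is a description, since the samples share 6 experiments and 4 groups. Closest to Alpl were Fxyd1 (r = 0.980), Hpgd (0.978) and Sema3b (0.977). Closest to Phex were Pdgfa (0.970), Bmp8a (0.964) and Cnnm2 (0.961) by the _i_at probe set. By the _f_at probe set they were Ptgis (0.961), Vit (0.958) and Bmp8a (0.955), so only Bmp8a was shared. Closest to Slc20a1 were Ubxn1 (0.979), Coro1b (0.976) and St13 (0.970), and closest to Slc20a2 were Phlda3 (0.988), Ahcyl1 (0.968) and Ruvbl2 (0.965). Mgp was most like Egfr (0.965), Tmem37 (0.950) and Meg3 (0.946). Ankh, whose levels hardly vary over these sorted samples, had lower values, with 2610507B11Rik at 0.920, Rbpjl at 0.852 and Lcn11 at 0.825.

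Among the members themselves, Alpl and Phex had r = 0.819 and Slc20a1 and Slc20a2 r = 0.810 over the same 12 samples. Alpl had r = -0.854 with Slc20a1 and -0.811 with Slc20a2. Mgp had r = -0.793 with Phex and -0.381 with Alpl, and Ankh lay between -0.138 and 0.203 with every other member. The 2 Phex probe sets of array C had r = 0.913 with each other.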

How the data were processed

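The deposited values were 1 intensity per probe set and array for 44 Affymetrix arrays (18 A, 13 B and 13 C) of 18 RNA samples, whole numbers on a linear scale with a lowest value of 10. The authors' summary and scaling of the probes are not stated in the labels or headers. The array types were hybridised with the same RNA and add no replicates. Array A carried all 18, arrays B and C the 12 sorted ones and the unsorted RNA of Exp106, whose B and C arrays entered no fit. Depth has no counterpart here, and the number of arrays limits the precision.

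Intensities plus 32 were taken to log2 and quantile normalised within array type. Probe sets brighter than the array median on 3 or more arrays were tested, 22099 over the 12 sorted samples and 7455 on array A over 18. Group means were fitted per array type with limma 3.58.1 in R 4.3.3 (lmFit, eBayes with a variance trend), and p-values were adjusted (Benjamini-Hochberg) over all probe sets of each of the 8 comparisons. The pipeline was run on simulated data with independent noise in each sample, so the effect of shared experiments was not examined. Genes came from the series' probe tables (29131 probe sets with 1 gene, 724 with several, 6846 with none), and symbols were updated through Entrez IDs to RefSeq. Figures were drawn with matplotlib 3.10.9 in Python 3.11.15.

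Groups came from the sample titles and the day from the descriptions. Titles share an experiment name between fractions, which were taken as pairs on that ground. As a check, deviations of the paired fractions from their group means correlated at 0.109 to 0.593 on array A, 0.0498 to 0.435 on B and 0.00351 to 0.346 on C. The experiment as a fixed block, or as a random block (statmod 1.5.0), was an alternative.

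Every member probe set is named. Of the other genes in the 6 pathway lists, those called are named. The largest change of a list without a call is named for the day 17 sort and for the days in GFP-positive cells. Cell type markers are given as counts and sums. By likeness the closest 3 genes are named. Members and lists were chosen with earlier results of these data known. Alternatives were the deposited scale, a pseudocount of 8 or 100, the 75th percentile as filter or none, no variance trend, a fit of only the groups compared, both blocks, and leaving out each sample or Exp106. Leaving out Exp106 together with the block was chosen after seeing the data.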

Additional observations from a re-analysis of the deposited data

Results flagged for a closer look

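The GFP effect on Phex differed between the days by the test of the difference itself. The _i_at probe set of array C had a GFP-positive minus GFP-negative difference of 4.12 ± 0.46 at day 17 and 0.70 ± 0.46 at day 7, which differ by 3.43 ± 0.65 (adjusted p = 0.0340, limma). The _f_at probe set had 4.86 ± 0.65 at day 17 and -0.57 ± 0.65 at day 7, which differ by 5.43 ± 0.91 (adjusted p = 0.0274, limma). None of its 6 day 7 samples was above its array's median, so it passed the filter through day 17 samples alone. Over 22 alternatives the call was lost in 13 for the first and 6 for the second, with adjusted p up to 0.125 and 0.0955 (limma), and the sign in none. Groups of 3 were not tested for outlying samples.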

How the results depend on the processing

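Of 47 member results, 16 were called. Of these, 8 were called under every alternative, 8 lost the call under at least 1, and none changed sign. Another 6 gained a call somewhere. The 8 that held are Alpl between the days in all 3 kinds of cells, both Phex probe sets between the days in GFP-positive cells and in the day 17 sort, and Mgp between the days in GFP-positive cells. The causes of the changes below were not tested. The block alone changed no call of a member other than those given for Mgp and Slc20a1. Without Exp106 it also brought Slc20a2 past the threshold in the difference of the GFP effects, at -1.74 (adjusted p = 0.0148, limma).

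Members called in the difference of the GFP effects numbered 2, against 1 without the filter, 1 without the variance trend, 4 without Exp106 and with the block, and 0 to 3 with a sample left out. For day 17 against day 7 in GFP-negative cells the 2 became 1 in a fit of only the groups compared and 1 to 3 with a sample left out. In unsorted cells the 2 became 1 without the filter, 1 with only the groups compared and 1 to 2 with a sample left out. In unsorted against sorted cells at day 17 the 1 became 0 with only the groups compared, 2 without Exp106, 2 with the fixed replicate block, 2 with the random replicate block, 2 with both changes and 0 to 1 with a sample left out.

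Sign changes came near 0, in results that were not called. As deposited, Slc20a1 was -0.063 in the day 17 sort, Alpl -0.046 in the day 7 sort and Ankh -0.013 in the difference of the effects. Ankh was -0.14 there without Exp106, with and without the block, and -0.050 between the days in GFP-positive cells without Exp106. With a sample left out, the day 17 sort gave Slc20a1 -0.25 to 0.55 and Ankh -0.18 to 0.083. The day 7 sort gave Alpl -0.033 to 0.47, Phex by the _f_at probe set -1.05 to 0.16 and Slc20a2 -0.29 to 0.33. Ankh gave -0.070 to 0.20 in the difference of the effects, -0.050 to 0.22 between the days in GFP-positive and -0.047 to 0.093 in GFP-negative cells. Unsorted against sorted cells gave Alpl -0.18 to 0.69 at day 17, and at day 7 Slc20a1 -0.022 to 0.15 and Mgp -0.066 to 0.097.

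Calls over all probe sets moved more. For the day 17 sort the 326 became 1047 without Exp106, 36 with only the groups compared, 1109 and 1313 with the fixed and random blocks, 1880 without Exp106 and with the block, and 143 to 776 with a sample left out. The 56 of the difference became 326, 251, 331, 876 and 2 to 171 without Exp106, with each block, with both changes and with a sample left out. GFP-positive cells between the days went to 2771 without Exp106 and 542 with only the groups compared (1204 in the report's fit), GFP-negative cells to 603 and 42 (119), and unsorted cells to 930 and 211 (426). Unsorted against sorted cells at day 17 went to 67 without the filter, 659 without Exp106, 1 with only the groups compared, 920 and 824 with the blocks and 932 with both changes (119). With a sample left out these 4 ranged from 527 to 1652, 26 to 343, 144 to 654 and 7 to 467. The 0 of the day 7 sort became 8 at most, without Exp106 and with the block, and the 0 of unsorted against sorted cells at day 7 became 1 without the variance trend.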
